A study of Mus musculus with 4 samples.

Results

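Cxcl9 and Cxcl10 are 2 of the 31053 genes counted in single-cell libraries of mouse liver, and both encode chemokines that act on the receptor CXCR3. They were chosen by their summed UMI levels at injury, where endothelial cells and bile duct cells of these same data differed widely in both genes, so the levels by cell class at injury describe the choice and are not a test. Both genes were found, and each was detected in all 3 libraries whose counts were used. Livers were taken from Col1a2-CreERT2 reporter mice, in which an inducible Cre driven by the Col1a2 promoter switches on tdTomato in collagen-producing cells. Steatohepatitis was produced with MCDHF, a 45% high-fat diet deficient in methionine and choline, given for 8 weeks with 0.1% L-methionine in the drinking water. Non-parenchymal cells were released with Pronase and Collagenase, purified on a Nycodenz gradient and sequenced with the 10x Genomics 3' v2 chemistry. The 3 libraries are reporter-negative cells of injured mice (genotype label R28RtdTomato), reporter-positive cells of mice in recovery (R27RtdTomato) and reporter-negative cells of mice in recovery (R29RtdTomato). All 3 carry Col1a2-CreERT2. The reporter labels rise from R26RtdTomato to R29RtdTomato in sample order and are printed as given, so no difference in reporter is read from them. tdTomato is not among the counted features, so the fractions are taken as labelled. A further library of the study, reporter-positive cells at injury (R26RtdTomato, 5311 barcodes), was not analysed here. The sources used here do not give sex, age, the number of mice pooled, the length of recovery or the method that split the fractions.

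After filtering, 5448 cells remained in the negative injury library, 2488 in the positive recovery library and 2955 in the negative recovery library, with medians of 6857, 11278 and 8673 unique molecular identifiers (UMIs) per cell. Between 3 and 9 barcodes were shared by any pair of the series' libraries. Leukocytes were nearly absent from the negative fractions: Ptprc (CD45) had 3 UMIs at injury and 12 in negative recovery, against 881 in positive recovery. Each group is 1 library, so no difference below has a replicate check and no test was made. Levels are UMIs per 1000000 UMIs of the cells named (CPM). Bracketed ranges are 95% intervals, exact Poisson for levels, exact Clopper-Pearson for shares, and conditional on the summed counts for folds. They cover counting error only, and UMIs of 1 cell are not independent of each other.

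CXCL9 and CXCL10 are small secreted chemokines that recruit activated T cells and NK cells through CXCR3. Transcription of Cxcl9 is known for its strong dependence on interferon-gamma. Cxcl10 also responds to type I interferons through interferon-stimulated response elements and to NF-kappaB. Sinusoidal endothelial cells line the fenestrated capillaries between hepatocyte plates, and cholangiocytes line the bile ducts around which leukocytes gather in chronic liver disease.

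Cxcl9 (ENSMUSG00000029417) lies on the minus strand of chromosome 5 at 92321347 to 92328079, and Cxcl10 (ENSMUSG00000034855) on the same strand at 92346638 to 92348889 (mm10, GENCODE release M21). The genes stand 18558 bases apart, and each has a protein-coding annotation with at most 4 exons in a transcript. Art3 runs across Cxcl10 on the opposite strand, and 1 of its exons overlaps Cxcl10. The sources used here do not say whether the counting used strand, so UMIs of that overlap cannot be assigned with certainty. A neighbouring family member, Cxcl11, is annotated as a polymorphic pseudogene and is not among the counted features. The 300 bases around each start site are shown because both genes are known as targets of interferon and NF-kappaB signalling. They run from 250 bases before to 50 bases after the RefSeq start (GRCm38.p6, minus strand, 5' to 3'), at chr5:92328030-92328329 for Cxcl9 and chr5:92348840-92349139 for Cxcl10. Capitals mark matches to the motifs searched.
Cxcl9: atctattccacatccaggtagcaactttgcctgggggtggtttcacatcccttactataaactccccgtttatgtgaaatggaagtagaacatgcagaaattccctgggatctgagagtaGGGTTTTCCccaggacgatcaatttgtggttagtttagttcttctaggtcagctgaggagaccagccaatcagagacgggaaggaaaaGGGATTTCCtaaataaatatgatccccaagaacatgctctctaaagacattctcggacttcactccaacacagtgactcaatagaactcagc
Cxcl10: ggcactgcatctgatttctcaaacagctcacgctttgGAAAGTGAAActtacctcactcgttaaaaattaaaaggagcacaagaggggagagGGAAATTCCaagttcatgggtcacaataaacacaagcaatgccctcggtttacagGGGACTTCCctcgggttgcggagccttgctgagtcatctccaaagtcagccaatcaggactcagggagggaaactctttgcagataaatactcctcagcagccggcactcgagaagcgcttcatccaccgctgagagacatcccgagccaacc
Both strands were searched for the interferon-stimulated response element (GAAA, any 2 bases, GAAA), the gamma-activated site TTCNNNGAA and a kappaB-like site GGNNNTTCC. The Cxcl10 window held 1 response element, GAAAGTGAAA, starting 213 bases before the start, while 3.44% of 32851 RefSeq promoter windows of this length held this motif. It also held the kappaB-like matches GGAAATTCC, which matches on both strands, at 158 bases and GGGACTTCC at 103 bases before the start. The Cxcl9 window held the kappaB-like matches GGGTTTTCC at 130 bases and GGGATTTCC at 42 bases before the start, and no match to the response element. A kappaB-like match occurred in 18.5% of all windows. Neither window held the letters of the gamma-activated site, which 8.30% of all windows held. A match describes letters only and does not show that a factor binds there. A missing match does not show that the window lacks a response element of other letters.

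Cells were assigned to classes by marker UMIs: Clec4g with Stab2 for sinusoidal, Vwf with Ly6c1 for vascular and Rspo3 with Wnt9b for central vein endothelium, Epcam with Spp1 for duct cells, and Upk3b for mesothelial cells, which cover the liver surface. Cells that passed gates of more than 1 lineage were left out (198 at injury, 102 in positive recovery and 80 in negative recovery). The negative injury library kept 3230 sinusoidal, 128 vascular, 197 central vein, 1026 duct and 294 mesothelial cells, and the negative recovery library 2126, 49, 146, 380 and 87 in the same order of classes. The positive recovery library kept 168 sinusoidal and 1546 mesothelial cells, and its 1 vascular, 9 central vein and 23 duct cells were too few to compare. Each gate carried its own marker list: all 10 sinusoidal markers were above 5 CPM in the sinusoidal gate at injury, as were all 9 duct markers in the duct gate, all 8 central vein, all 10 vascular and all 10 mesothelial markers in theirs. Since the lists hold the gate markers themselves, these values do not show how far the gates differ from each other. The 3 endothelial gates overlap, since 74 of the 128 vascular and 125 of the 197 central vein cells at injury also passed the sinusoidal gate, as did 28 of 49 and 54 of 146 in negative recovery. The duct gate also carried hepatocyte marker RNA, at 10116 CPM at injury and 7047 CPM in negative recovery. The mesothelial gate at injury carried the stellate list at 9243 CPM, of which the shared mesenchymal gene Dcn gave 8925 CPM.

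Over whole libraries, Cxcl9 was measured at 375 CPM (369 to 380.2) in the negative injury library, 14.2 CPM (12.9 to 15.5) in positive recovery and 134 CPM (129.98 to 139) in negative recovery. Cxcl10 was measured at 1448 CPM (1437 to 1458), 132 CPM (129 to 136) and 247 CPM (241 to 253) in the same order. Both genes were thus highest in the negative injury library and lowest in the reporter-positive fraction, where mesothelial cells made up 62.1% of the cells. Injury over negative recovery came to 2.79-fold (2.69 to 2.89) for Cxcl9 and 5.86-fold (5.72 to 6.01) for Cxcl10 over all cells, where 2.4% of 13805 genes were at least 2-fold higher and 1.09% at least 2-fold lower with 10 CPM added. A whole-library sum cannot tell fewer cells of a class from less RNA per cell, so the classes are given one by one.

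At injury, Cxcl9 stood at 787 CPM (775 to 799) in sinusoidal cells, 489 CPM (446 to 535) in vascular cells and 369.5 CPM (339.8 to 401) in central vein cells. The level was 4.26 CPM (3.30 to 5.41) in duct cells and 2.92 CPM (1.67 to 4.74) in mesothelial cells. All 3 endothelial gates, which share cells, thus carried Cxcl9, and the duct and mesothelial levels, which rest on 67 and 16 UMIs, have overlapping intervals. Cxcl10 stood at 2915 CPM (2891 to 2938) in sinusoidal, 2621 CPM (2521 to 2725) in vascular and 2632 CPM (2551 to 2714) in central vein cells. It was measured at 275 CPM (261 to 289) in mesothelial cells and 67.9 CPM (63.9 to 72.1) in duct cells. The 3 endothelial gates lay close together for Cxcl10, but 74 of 128 vascular and 125 of 197 central vein cells were also counted as sinusoidal. Over the alternative settings given at the end, the Cxcl10 log2 ratio of sinusoidal over vascular was 0.06 to 0.63. That of sinusoidal over central vein was 0.09 to 0.74, against 0.15 for each in the main setting. Duct cells, not mesothelial cells, were lowest in Cxcl10. Sinusoidal over duct, the ratio that led to the choice of these genes, came to 185-fold (145 to 239) for Cxcl9 and 42.9-fold (40.4 to 45.7) for Cxcl10. Among genes with at least 50 UMIs over both classes, 12.5% were at least 2-fold higher and 14.6% at least 2-fold lower in sinusoidal than in duct cells, with 10 CPM added to both levels. Sinusoidal over mesothelial came to 269.7-fold (166 to 472) for Cxcl9 and 10.6-fold (10.1 to 11.2) for Cxcl10, with 14.3% of genes at least 2-fold higher and 11.3% at least 2-fold lower. Among endothelial gates, sinusoidal over vascular was 1.61-fold (1.47 to 1.77) for Cxcl9 and 1.11-fold (1.07 to 1.16) for Cxcl10, where 0.82% of genes were at least 2-fold higher and 1.67% lower. Sinusoidal over central vein was 2.13-fold (1.958 to 2.32) and 1.11-fold (1.07 to 1.14), where 0.636% were higher and 1.31% lower, so Cxcl9 separated the endothelial gates more than Cxcl10 did.

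**Figure D1:**
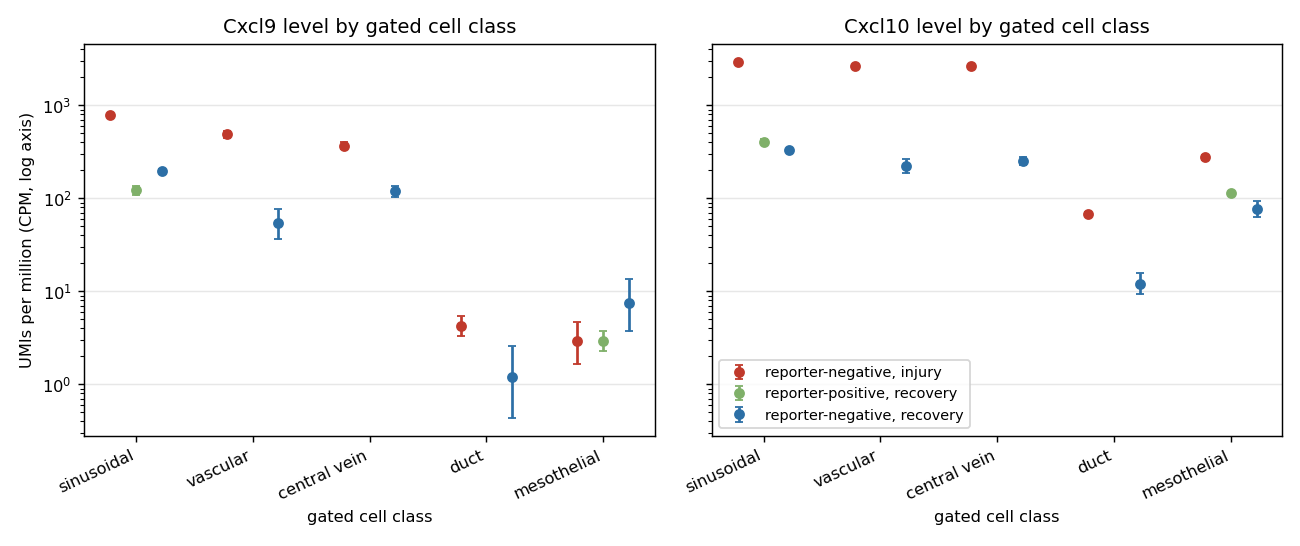
Level of Cxcl9 (left) and Cxcl10 (right) in each gated cell class, in UMIs per 1000000 UMIs on a log axis, for the negative injury, positive recovery and negative recovery libraries (1 library each, classes of at least 30 cells). Points are sums over cells and bars are 95% Poisson intervals: endothelial points lie above duct and mesothelial points in every library shown, and the Cxcl9 points of duct and mesothelial cells rest on 6 to 71 UMIs.

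The genes were chosen by their levels at injury, but with earlier results of these data known, so the recovery libraries are no independent check. In them the endothelial classes compared also stood above duct and mesothelial cells. In negative recovery, Cxcl9 was measured at 199 CPM (192 to 205) in sinusoidal, 54.1 CPM (36.7 to 76.8) in vascular, 119.6 CPM (104 to 137) in central vein, 1.19 CPM (0.438 to 2.60) in duct and 7.54 CPM (3.76 to 13.5) in mesothelial cells. The central vein value rested on 1 cell, which held 143 of the 208 Cxcl9 UMIs and also passed the sinusoidal gate. Without it the central vein level was 37.8 CPM and the sinusoidal level 191 CPM. Cxcl10 was measured at 334 CPM (326 to 343) in sinusoidal, 223 CPM (186 to 265) in vascular, 251 CPM (228 to 276) in central vein, 12.1 CPM (9.29 to 15.6) in duct and 77.4 CPM (63.8 to 93.1) in mesothelial cells. Sinusoidal over duct was 166-fold (76.4 to 454) for Cxcl9 and 27.5-fold (21.4 to 36.0) for Cxcl10, so the interval for Cxcl9 includes the ratio at injury and that for Cxcl10 lies below it. At the same threshold 14.2% of genes were at least 2-fold higher and 14.9% at least 2-fold lower in sinusoidal than in duct cells of that library. In positive recovery, sinusoidal over mesothelial was 41.4-fold (31.8 to 54.6) for Cxcl9 and 3.60-fold (3.33 to 3.88) for Cxcl10, where 12.1% of genes were at least 2-fold higher and 8.79% lower. In negative recovery the same ratio was 26.4-fold (14.7 to 52.9) for Cxcl9 and 4.31-fold (3.58 to 5.24) for Cxcl10, where 16% of genes were at least 2-fold higher and 9.75% lower. Single mesothelial cells weigh on these ratios: without the highest cell of each class the mesothelial Cxcl9 level was 0.912 CPM in place of 2.94 CPM in positive recovery, and 2.07 CPM in place of 7.54 CPM in negative recovery. With 10 CPM added, the log2 ratios without those cells were 3.52 for Cxcl9 and 2.02 for Cxcl10 in positive recovery, against 3.35 and 1.76 with them. In negative recovery they were 4.06 and 2.63, against 3.57 and 1.98. Sinusoidal over vascular was 3.68-fold (2.58 to 5.42) and 1.496-fold (1.26 to 1.80) there, with 2.79% of genes at least 2-fold higher and 2.93% lower. Sinusoidal over central vein was 1.66-fold (1.44 to 1.92) and 1.33-fold (1.21 to 1.47), with 3% higher and 2.84% lower. The Cxcl9 ratio contains the 143-UMI cell, without which the levels were 191 and 37.8 CPM. Its log2 ratio, 0.69 with 10 CPM added, was 0.55 to 2.99 over the alternative settings.

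Set against negative recovery, negative injury had higher levels of both genes in all 3 endothelial gates. In sinusoidal cells Cxcl9 was 3.96-fold (3.82 to 4.11) and Cxcl10 8.73-fold (8.50 to 8.96) as high at injury, which placed them at ranks 51 and 11 of 11202 genes by log2 ratio. Of those genes 2.12% were at least 2-fold higher and 0.616% at least 2-fold lower at injury. The median log2 ratio of all tested genes in this gate was -0.14, and with factors from the trimmed mean of M-values (TMM) it was -0.02. With these factors 321 genes were at least 2-fold higher and 37 at least 2-fold lower, in place of 238 and 69. The members' log2 ratios, 1.93 for Cxcl9 and 3.09 for Cxcl10, became 2.12 and 3.28. In vascular cells Cxcl9 was 9.04-fold (6.29 to 13.5) and Cxcl10 11.7-fold (9.83 to 14.1) as high at injury, where 4.05% of genes were at least 2-fold higher and 2.2% lower. In central vein cells Cxcl9 was 3.09-fold (2.63 to 3.64) and Cxcl10 10.5-fold (9.49 to 11.6) as high at injury, where 3.5% of genes were at least 2-fold higher and 2.41% lower. Without the cell with the most Cxcl9 UMIs in each library, the central vein levels of Cxcl9 were 339 CPM at injury and 37.8 CPM in recovery.

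In duct cells Cxcl10 was 5.59-fold (4.32 to 7.36) as high at injury, 1068 UMIs against 61 UMIs in negative recovery, and it stood at rank 52 of 11471 genes. Of these genes 1.77% were at least 2-fold higher and 0.715% at least 2-fold lower at injury. Single cells carried some of these counts: 120 of the 1068 UMIs at injury and 15 of the 61 UMIs in recovery came from 1 cell each, and without them the levels were 60.3 and 9.27 CPM. Cxcl9 in duct cells was 3.57-fold (1.56 to 10.1) as high at injury on 67 UMIs against 6 UMIs, and with 10 CPM added its log2 ratio was 0.35. At 4.26 CPM the added 10 CPM keep any such ratio under 2-fold, and with 1 CPM added it was 1.26, so the threshold says nothing about this gene in duct cells. In mesothelial cells Cxcl10 was 3.55-fold (2.93 to 4.34) as high at injury, where 2.61% of genes were at least 2-fold higher and 2.2% lower. In recovery 48 of its 113 UMIs lay in 1 cell, without which that level was 45.0 CPM. Cxcl9 in mesothelial cells went the other way, with 2.92 CPM at injury and 7.54 CPM in negative recovery, a ratio of 0.387 (0.169 to 0.923). That ratio rests on 16 and 11 UMIs, 8 of the 11 in 1 cell, and the recovery level without that cell was 2.07 CPM. Without the highest cell of each library the log2 ratio was 0.01, against -0.44 with all cells, so the direction rests on single cells and is not read as a difference.

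Reporter-positive and reporter-negative fractions were compared in recovery alone. Over all cells the positive fraction had 0.105 (0.0956 to 0.116) of the Cxcl9 level and 0.536 (0.516 to 0.557) of the Cxcl10 level of the negative fraction, where 6.52% of genes were at least 2-fold higher and 7.49% at least 2-fold lower. Within the sinusoidal gate the ratios were closer to 1. Cxcl9 was measured at 122 CPM (108 to 137) in positive cells and 199 CPM in negative cells, a ratio of 0.612 (0.539 to 0.694). Cxcl10 was measured at 408 CPM (382 to 436) and 334 CPM, a ratio of 1.22 (1.14 to 1.31). Neither passed 2-fold, where 3.36% of genes were higher and 0.122% lower. Of the 168 positive sinusoidal cells, 52 also passed a stellate gate (Lrat with Reln), and the whole class carried the stellate list at 13224 CPM, against 175 CPM in negative recovery sinusoidal cells. The 116 positive sinusoidal cells that did not pass the stellate gate held 157 CPM (132 to 184) of Cxcl9 and 324 CPM (288 to 362) of Cxcl10. The interval for Cxcl10 includes the 334 CPM of the negative fraction. Those cells can still hold Lrat or Reln alone, and their level of the stellate list was not measured.

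In positive recovery mesothelial cells Cxcl10 was measured at 113 CPM (109 to 118), against 77.4 CPM in negative recovery, a ratio of 1.47 (1.21 to 1.79). A single cell of 62901 UMIs gave 755 of the 2743 Cxcl10 UMIs and 49 of the 71 Cxcl9 UMIs. Without it the positive levels were 82.5 CPM for Cxcl10 and 0.912 CPM for Cxcl9, against 45.0 CPM and 2.07 CPM when the highest negative cell was left out as well. Of the tested genes 1.7% were at least 2-fold higher and 0.102% at least 2-fold lower in positive mesothelial cells, and neither chemokine was among them.

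The balance between the genes differed by class. These are 3'-end molecule counts, so no scaling by transcript length was applied to the ratio. At injury Cxcl9 gave 21.3% (21.0 to 21.5) of the UMIs of both genes in sinusoidal, 15.7% (14.4 to 17.1) in vascular and 12.3% (11.4 to 13.3) in central vein cells. It gave 5.90% (4.60 to 7.44) in duct and 1.05% (0.601 to 1.70) in mesothelial cells. In negative recovery the share was 37.3% (36.3 to 38.3) in sinusoidal, 19.5% (13.6 to 26.5) in vascular, 8.96% (3.36 to 18.5) in duct and 8.87% (4.51 to 15.3) in mesothelial cells. The central vein share of 32.2% (28.7 to 36.0) contains the 143-UMI cell named above. In positive recovery it was 23.0% (20.6 to 25.5) in sinusoidal and 2.52% (1.98 to 3.17) in mesothelial cells. Without the highest cells the share was 1.09% in positive and 4.41% in negative recovery mesothelial cells, and 13.9% in negative recovery central vein cells. Sinusoidal cells thus carried 3.71 Cxcl10 UMIs per Cxcl9 UMI at injury and 1.68 in negative recovery, and mesothelial cells at injury carried 94.3.

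**Figure D2:**
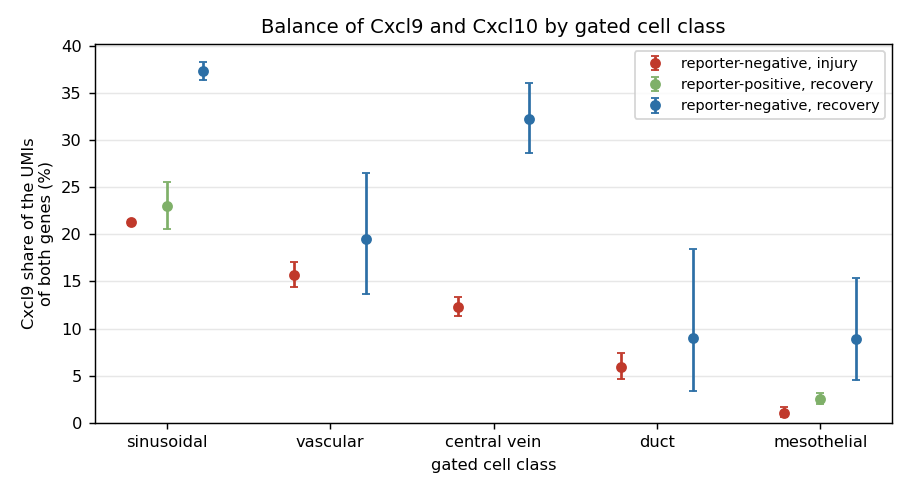
Cxcl9 as a percentage of the UMIs of Cxcl9 and Cxcl10 together, by gated cell class, for the negative injury, positive recovery and negative recovery libraries (1 library each). Bars are 95% Clopper-Pearson intervals: sinusoidal cells reach 37.3% in negative recovery and 21.3% at injury, and mesothelial cells at injury have the lowest share, 1.05%.

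Detection per cell was compared after every cell was thinned to 1000 UMIs, because depth differed between classes. At injury 39.4% (37.7 to 41.2) of 3195 sinusoidal cells had a Cxcl9 UMI and 74.0% (72.5 to 75.5) a Cxcl10 UMI, against 13.2% (11.8 to 14.7) and 20.6% (18.9 to 22.4) of 2092 sinusoidal cells in negative recovery. Thinning left out 35 and 34 sinusoidal cells. Unthinned, the shares at injury were 68.4% and 89.7%, at a median of 6192 UMIs, and 45.1% and 50.8% in negative recovery, at 8400 UMIs. Of duct cells at injury, 0.692% (0.279 to 1.42) had a Cxcl9 UMI and 5.73% (4.38 to 7.35) a Cxcl10 UMI after thinning, and 4.39% and 34.6% without it, at a median of 14878 UMIs. In negative recovery duct cells, 0 of 370 thinned cells had a Cxcl9 UMI, which allows up to 0.811% of cells with one at that thinned depth, and 0.811% (0.168 to 2.35) a Cxcl10 UMI. Unthinned, at a median of 11122.5 UMIs, 1.58% of the 380 cells had a Cxcl9 UMI and 8.68% a Cxcl10 UMI. Of mesothelial cells at injury, 22.6% (17.8 to 27.9) had a Cxcl10 UMI after thinning and 1.43% (0.392 to 3.63) a Cxcl9 UMI. Per cell, unthinned, the median sinusoidal cell at injury held 14 Cxcl10 UMIs (quartiles 4 and 27) and 2 Cxcl9 UMIs (quartiles 0 and 7). In negative recovery it held 1 Cxcl10 UMI (quartiles 0 and 4) and 0 Cxcl9 UMIs (quartiles 0 and 2). The tenth of sinusoidal cells with the most Cxcl9 held 44.9% of its UMIs at injury and 59.9% in negative recovery, and for Cxcl10 these shares were 32.9% and 53.5%.

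Both genes were often found in the same sinusoidal cell. With cells thinned to 3000 UMIs, 1625 of 2895 sinusoidal cells at injury had both, 56.1% (54.3 to 57.9), where the product of the separate shares is 53.3%. Cxcl10 was found in 92.9% (91.6 to 94.1) of the cells with Cxcl9 and 81.2% (78.8 to 83.4) of those without. In positive recovery 12.2% (7.37 to 18.5) of 148 sinusoidal cells had both, at a product of 11.7%, and in negative recovery 12.8% (11.4 to 14.3) of 2007, at a product of 10.97%. There Cxcl10 was found in 44.1% (40.01 to 48.2) of the cells with Cxcl9 and 35.2% (32.7 to 37.7) of the others. Co-detection was 45.1% (36.1 to 54.3) of 122 vascular and 36.6% (29.8 to 43.8) of 194 central vein cells at injury. Among duct cells 3 of 965 had both genes, 0.311% (0.0642 to 0.906) at a product of 0.180%, while 117 had Cxcl10 alone and 11 Cxcl9 alone. Among mesothelial cells at injury 1 of 262 had both, 0.382% (0.00966 to 2.11) at a product of 0.143%, and 97 had Cxcl10 alone. With 14 duct cells and 1 mesothelial cell holding Cxcl9, these shares are too low to say how far the genes go together there.

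**Figure D3:**
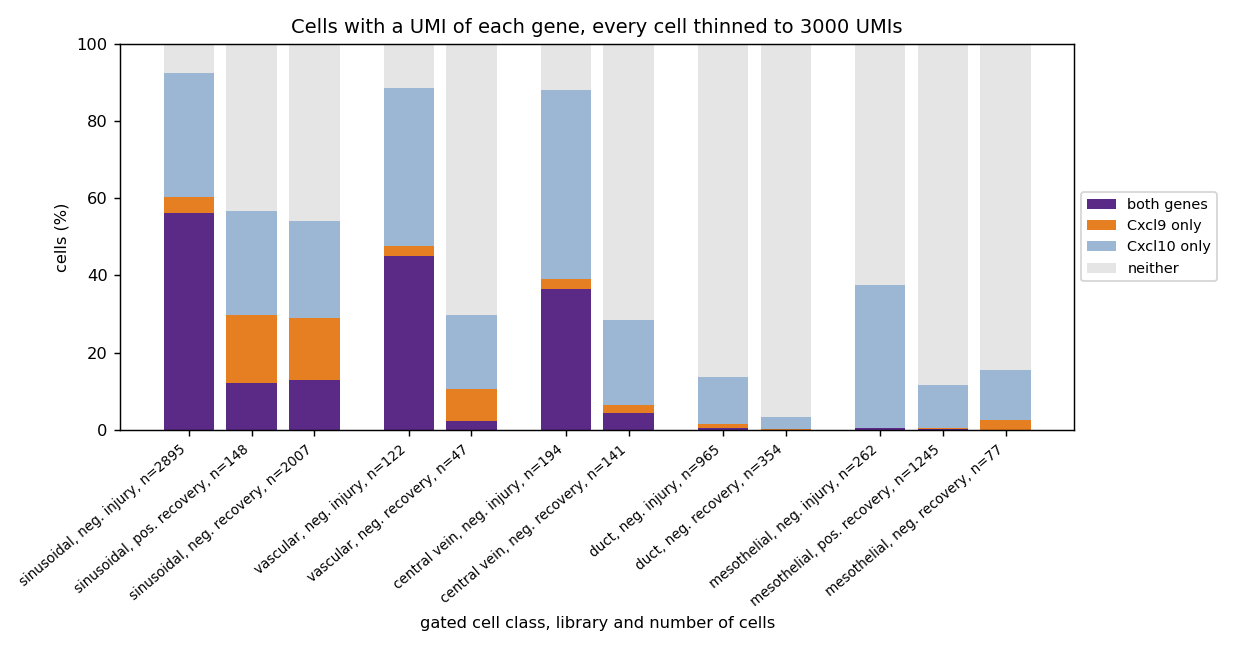
Percentage of cells with a UMI of both genes, of Cxcl9 alone, of Cxcl10 alone or of neither, after thinning to 3000 UMIs per cell, by gated class and library (n is the number of cells). Both genes together fill 56.1% of the sinusoidal bar at injury and 12.8% in negative recovery, and in the duct and mesothelial bars most cells with either gene have Cxcl10 alone.

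Endothelial marker RNA in duct and mesothelial cells was measured beside the chemokines, since free RNA in droplet data gives UMIs in cells that do not express a gene. At injury the 10 sinusoidal marker genes together stood in duct cells at 0.670% (0.637 to 0.705) of their sinusoidal level, and the pan-endothelial list at 0.796% (0.745 to 0.849). Cxcl9 stood at 0.541% (0.419 to 0.688) of its sinusoidal level in duct cells, and Cxcl10 at 2.33% (2.19 to 2.47). The sinusoidal list holds the gate markers Clec4g and Stab2, and cells that passed the sinusoidal and the duct or mesothelial gate had been left out. The gating itself thus lowers that list in duct and mesothelial cells, so it is not a measure of free RNA alone. No expression of Cxcl9 by duct cells is read from these values, and the part of carried-over RNA in either chemokine was not tested. In negative recovery the duct values were 0.567% (0.517 to 0.620) for the sinusoidal list, 0.806% (0.732 to 0.885) for the pan-endothelial list, 0.601% (0.220 to 1.31) for Cxcl9 and 3.63% (2.78 to 4.68) for Cxcl10. In mesothelial cells at injury Cxcl10 stood at 9.43% (8.96 to 9.93) of its sinusoidal level, while Cxcl9 stood at 0.371% (0.212 to 0.602) and the sinusoidal list at 0.480% (0.432 to 0.530). In positive recovery mesothelial cells Cxcl9 stood at 2.41% (1.83 to 3.15) and Cxcl10 at 27.8% (25.8 to 30.02), against 0.352% for the sinusoidal and 1.90% for the pan-endothelial list. In negative recovery these values were 3.79% (1.89 to 6.79) and 23.2% (19.1 to 27.9), against 0.656% and 2.83%, and in both recovery libraries 1 cell held most of the mesothelial Cxcl9 UMIs. The cells left out for passing more than 1 gate differ from both classes. The 119 cells at injury with sinusoidal and duct markers together held 340.0 CPM of Cxcl9 and 1285 CPM of Cxcl10, and Cxcl9 gave 20.9% (19.4 to 22.5) of their UMIs of both genes, close to the 21.3% of sinusoidal cells. With such cells kept in their gates, the log2 ratio of sinusoidal over duct at injury, with 10 CPM added, was 4.03 for Cxcl9 and 3.78 for Cxcl10, against 5.80 and 5.23 without them. The doublet caller Scrublet called only 0.0918% of the cells at injury and 0.203% in negative recovery and was not relied on.

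Cells outside these 5 classes also held the transcripts. At injury the 39 stellate-gated cells, vitamin A-storing pericytes, held 743 CPM (666 to 827) of Cxcl10 and 11.1 CPM (3.59 to 25.8) of Cxcl9 on 5 UMIs. The 492 cells that passed no gate, with a median of 2244 UMIs, held 1601 CPM (1544 to 1659) of Cxcl10 and 534 CPM (502 to 569) of Cxcl9. In positive recovery the 121 stellate-gated cells held 105 CPM (89.2 to 123) of Cxcl10 and 1 UMI of Cxcl9. Only 4 stellate-gated cells were kept in negative recovery, so stages were not compared in that class. The 46 hepatocyte-gated cells at injury held 352 CPM (317 to 391) of Cxcl10 and 32.5 CPM (22.3 to 45.6) of Cxcl9, and 128 fibroblast-gated cells in positive recovery held 44.4 CPM (34.7 to 56.0) and 3.13 CPM (1.01 to 7.29).

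Among other genes of the CXCR3 axis, the receptor itself was almost absent from the negative fractions. Cxcr3 had 1 UMI at injury and 2 UMIs in negative recovery over all cells, against 87 UMIs in positive recovery. The cytokine genes Ifng and Ifnb1 had 0 UMIs in both negative libraries, which allows up to 0.0616 CPM at injury and 0.110 CPM in negative recovery, while positive recovery held 69 and 6 UMIs. Dpp4, a membrane peptidase that trims both chemokines, was measured in sinusoidal cells at 391 CPM at injury and 518 CPM in recovery, a ratio of 0.754 (0.732 to 0.777). Ackr3, a scavenging receptor of other CXC chemokines, was measured in sinusoidal cells at 60.0 CPM at injury and 23.0 CPM in recovery. That was 2.60-fold (2.33 to 2.92) as high at injury. In vascular cells Ackr3 was lower at injury, at 70.4 CPM against 125.6 CPM, a ratio of 0.561 (0.397 to 0.791). In central vein cells its ratio was 1.20 (0.980 to 1.47). Ackr1, the atypical chemokine receptor of venules, was measured at 54.6 CPM and 66.4 CPM in sinusoidal cells, but at 98.7 CPM and 36.2 CPM in central vein cells, 2.72-fold (2.02 to 3.72) as high at injury. Pf4, a platelet chemokine, was measured at 11.9 CPM and 10.9 CPM in sinusoidal cells and at 15.6 CPM and 4.98 CPM in duct cells. In mesothelial cells Dpp4 and Ackr3 were lower at injury, at 109 against 319 CPM and 67.1 against 186 CPM. Of the 6 tested axis genes 3 were at least 2-fold higher at injury in sinusoidal cells, namely Cxcl9, Cxcl10 and Ackr3. In duct cells 1 of 4 was, Cxcl10 itself. Over all genes the shares were 2.12% and 1.77%. The chemokines were chosen for their levels at injury, so the axis counts are not read against those shares.

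With 10 CPM added, most interferon-stimulated genes of the lists were at least 2-fold higher at injury in both sinusoidal and duct cells. A minority of the receptor, signalling and antigen presentation genes passed that threshold, although their list medians lay above that of all tested genes. The added 10 CPM hold down the ratios of genes at low level, so some genes not counted have folds above 2 without them. These lists were chosen with earlier results of these data in view. Of the antiviral list 15 of 18 tested genes were at least 2-fold higher in sinusoidal cells (median log2 ratio 2.03, against -0.14 for all tested genes) and 17 of 19 in duct cells (2.06, against -0.06). Ifit3, an interferon-induced RNA-binding protein, was measured in sinusoidal cells at 573 CPM at injury and 22.4 CPM in recovery, and in duct cells at 275 CPM and 7.76 CPM. Rsad2, which encodes viperin, was measured at 1060 CPM and 53.6 CPM in sinusoidal and at 127 CPM and 4.58 CPM in duct cells. Ifit1 was 22.1-fold (19.9 to 24.5) and 11.3-fold (9.87 to 12.9) as high at injury in these classes, and Ifit3b 20.7-fold (18.1 to 23.8) and 48.4-fold (27.6 to 93.8). Ifit3 and Ifit3b are close copies whose reads may be split between them. Most tested genes of the antiviral list were thus higher at injury in both classes.

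Of the guanylate-binding and immunity-related GTPases, a family induced by interferon-gamma, 12 of 14 tested genes were at least 2-fold higher in sinusoidal cells (median 1.63). In duct cells 8 of 14 were (1.33), with 10 CPM added. Gbp4 at 2.05-fold, Gbp6 at 2.26-fold, Gbp9 at 2.12-fold and Tgtp2 at 2.18-fold in duct cells were above 2-fold only without the added 10 CPM. The lower duct count is thus not read as a difference between the classes. Iigp1 was measured at 1236 CPM at injury and 229.9 CPM in recovery in sinusoidal cells, and at 352 CPM and 73.8 CPM in duct cells. Ifi47 was 5.38-fold (4.96 to 5.84) and 3.79-fold (3.28 to 4.39), Gbp3 5.65-fold (4.998 to 6.41) and 18.5-fold (10.3 to 37.3), and Gbp6 11.9-fold (9.30 to 15.6) and 2.26-fold (1.63 to 3.20) as high in sinusoidal and duct cells. Of the receptors and signalling genes, 7 of 18 in sinusoidal and 5 of 18 in duct cells were at least 2-fold higher (medians 0.55 and 0.34). Irf7, the factor that amplifies type I interferon, was measured at 567 CPM at injury and 19.9 CPM in recovery in sinusoidal cells, and at 624 CPM and 27.1 CPM in duct cells. Usp18, which restrains interferon receptor signalling, was 7.15-fold (6.22 to 8.26) and 4.42-fold (3.73 to 5.27) as high. Socs1, a JAK inhibitor, was measured at 262 CPM and 78.5 CPM in sinusoidal but at 12.6 CPM and 6.77 CPM in duct cells. Irf8, a partner factor in interferon-gamma responses, was measured at 419 CPM and 142 CPM in sinusoidal but at 5.85 CPM and 3.38 CPM in duct cells.

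Of the NF-kappaB list 8 of 16 tested genes were at least 2-fold higher in sinusoidal cells (median 0.89) and 2 of 14 in duct cells (0.43). Tnfaip3 and Tnfrsf1b in duct cells, at 2.41-fold and 3.03-fold, were not counted because of the added 10 CPM. Selp, which encodes P-selectin, was measured in sinusoidal cells at 304 CPM at injury and 15.6 CPM in recovery, and had 18 UMIs and 1 UMI in duct cells. Sele, which encodes E-selectin, was measured at 64.9 CPM and 8.67 CPM in sinusoidal cells. Tnfaip3, the feedback inhibitor A20, was 8.71-fold (8.11 to 9.36) as high at injury in sinusoidal and 2.41-fold (1.90 to 3.098) in duct cells, and the cytokine gene Tnf 16.6-fold (13.3 to 21.0) and 7.14-fold (5.16 to 10.2). Of the other chemokines 3 of 6 tested in sinusoidal and 4 of 9 in duct cells were at least 2-fold higher (medians 1.03 and 0.998). Cxcl12 at 3.56-fold, Ccl20 at 5.07-fold and Ccl7 in duct cells were not counted, again because of the added 10 CPM. Cxcl2 and Cxcl1, which attract neutrophils, were 15.1-fold (12.8 to 17.9) and 3.97-fold (3.61 to 4.37) as high at injury in sinusoidal cells, and 6.11-fold (4.86 to 7.77) and 2.49-fold (2.29 to 2.70) in duct cells. Ccl2, which attracts monocytes, was 13.5-fold (11.5 to 15.9) and 14.1-fold (11.2 to 18.1) as high in sinusoidal and duct cells, and Ccl7 had 65 against 3 UMIs in sinusoidal and 69 against 0 UMIs in duct cells. In duct cells at injury Cxcl10 stood at 67.9 CPM, each count being of 3'-end molecules. Above it stood Cxcl1 at 324 CPM, Ccl2 at 199.8 CPM, Cxcl5 at 139 CPM, Cxcl16 at 115 CPM and Cxcl2 at 94.8 CPM.

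Of the antigen presentation list, 2 of 12 tested genes in sinusoidal and 4 of 16 in duct cells were at least 2-fold higher (medians 0.57 and 0.51). Ciita at 2.36-fold, Cd274 and Nlrc5 in duct cells were above 2-fold only without the added 10 CPM, as were Tap1 and Nlrc5 in sinusoidal cells. Cd274, which encodes PD-L1, was 7.71-fold (6.80 to 8.77) and 2.36-fold (1.37 to 4.36) as high at injury. H2-D1 was 2.14-fold (2.11 to 2.16) and 2.32-fold (2.27 to 2.37), Tap1 2.12-fold (1.97 to 2.28) and 2.96-fold (2.55 to 3.45), and Nlrc5, the class I transactivator, 2.38-fold (2.04 to 2.78) and 2.09-fold (1.53 to 2.92) as high. In duct cells 1 list gene was at least 2-fold lower, the class II gene H2-Eb1, with 24 UMIs at injury and 156 UMIs in recovery. Over all lists, and without the 2 chemokines, 48 genes were at least 2-fold higher and 0 lower of 88 tested in sinusoidal cells, where 2.12% of all genes were higher and 0.616% lower. In duct cells 40 were higher and 1 lower of 92 tested, where 1.77% of all genes were higher and 0.715% lower.

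**Figure D4:**
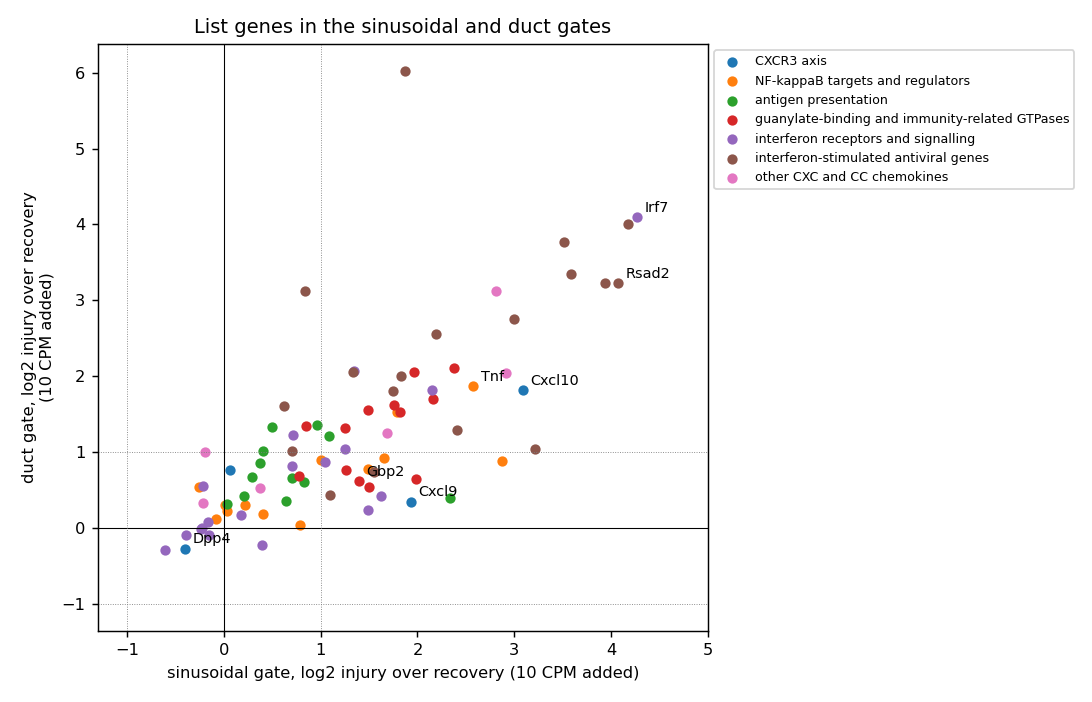
Log2 ratio of negative injury over negative recovery in the sinusoidal gate (x axis) and the duct gate (y axis), with 10 CPM added, for 84 list genes tested in both gates, coloured by list. Dotted lines mark 2-fold: Cxcl10 lies past 2-fold on both axes. Cxcl9 lies at 1.93 on the sinusoidal and 0.35 on the duct axis, where the added 10 CPM hold down genes of low level (folds without them are 3.96 and 3.57).

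Likeness to each chemokine was measured as Pearson's r of log2(CPM + 10) over 17 points, each a class in a library, among 7105 genes with at least 50 CPM in 1 of them. The points share libraries and, for the endothelial gates, cells, so r is a description. Cxcl9 was most like Asb4 (0.94), Nras (0.94), Pgm1 (0.93), Mb21d1 (0.93) and Cd93 (0.93). Asb4 was measured in sinusoidal cells at 98.3 CPM at injury and 37.1 CPM in recovery, and in duct cells at injury at 0.381 CPM. Mb21d1, which encodes the cytosolic DNA sensor cGAS, was measured at 58.5 CPM in sinusoidal and 3.69 CPM in duct cells at injury. Cd93, an endothelial glycoprotein gene, was measured at 1064 CPM and 3.18 CPM. Cxcl10 was most like Fkbp5 (0.95), Trim30d (0.92), Trim30a (0.90), Rsad2 (0.89) and Zc3hav1 (0.88). Fkbp5, a co-chaperone gene induced by glucocorticoids, was measured at 114 CPM in sinusoidal and 22.8 CPM in duct cells at injury, and Zc3hav1, which encodes an antiviral zinc finger protein, at 171 CPM and 59.4 CPM. The chemokines had r = 0.84 with each other, which placed Cxcl10 at 217 in the order for Cxcl9, and Cxcl9 at 20 in the order for Cxcl10.

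Within the sinusoidal gate at injury, cells with and without a Cxcl9 UMI (1749 and 1146 cells, thinned to 3000 UMIs) were compared over the lists. No list gene was at least 2-fold apart, and of 9157 tested genes 0.0109% were at least 2-fold higher and 0.0218% lower, so this count says little. The median log2 ratio was 0.51 for the antiviral list, 0.45 for the GTPases, 0.22 for antigen presentation and 0.03 for NF-kappaB genes, against -0.03 for all tested genes. Rsad2 was measured at 1311 CPM in cells with Cxcl9 and 760 CPM in those without, and Cxcl10 at 3317 CPM and 2288 CPM. Selp went the other way, at 237 CPM and 356 CPM. Split by Selp instead, 1259 cells with a Selp UMI held 723 CPM (706 to 741) of Cxcl9 and 3132 CPM (3096 to 3169) of Cxcl10, while 1971 cells without it held 839 CPM (822 to 856) and 2737 CPM (2707 to 2768). The cells with Selp were deeper, at a median of 6976 UMIs against 5574. After thinning to 3000 UMIs, 56.6% of cells with and 63.1% of cells without Selp had a Cxcl9 UMI, and 90.3% and 86.8% a Cxcl10 UMI. In this library the level and the thinned share of Cxcl9 were thus both lower with Selp, and those of Cxcl10 both higher. In negative recovery 67 cells with a Selp UMI held 263 CPM (228 to 303) of Cxcl9 and 2059 cells without it 196 CPM (189 to 203), but after thinning 9.38% and 29.7% of them had a Cxcl9 UMI, so no order is read there. The central vein marker list, of which Selp is a member, stood at 1624 CPM in cells with Cxcl9 and 2305 CPM in those without, and its part in these differences was not tested.

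Only 14 duct cells had a Cxcl9 UMI after thinning, so they were not compared. A split by Cxcl10, chosen after the data were seen, set 120 duct cells with a UMI against 845 without. Rsad2 was at least 2-fold higher in the first set, at 275 CPM and 115 CPM, the only list gene past that threshold, where 0.125% of tested genes were higher and 0.653% lower. Ccl2 was measured at 269 CPM and 140 CPM, Cxcl5 at 206 CPM and 107 CPM and Gbp2 at 52.8 CPM and 27.6 CPM. The sinusoidal marker list stood at 250 CPM and 96.6 CPM in these sets, and its part in the difference was not tested. The same split of mesothelial cells, 98 against 164, gave Ccl2 at 1044 CPM and 496 CPM, the only list gene at least 2-fold apart, where 0.3% of tested genes were higher and 0.257% lower. Cxcl1 was measured there at 684 CPM and 400.4 CPM, while the antiviral list had a median log2 ratio of -0.06. The sinusoidal marker list stood at 197 CPM and 67.1 CPM in these sets, a difference whose part was not tested.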

How the data were processed

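Single-cell RNA libraries were deposited as filtered matrices of UMI counts per gene and cell barcode, and the authors' matrix software was version 3.1.0, per the file headers. The submitters' processing notes name mm10 and GRCh38 as builds and featureCounts 1.6.2 among the tools. The sources used here do not state doublet removal or the use of strand. Barcodes under 500 UMIs or 300 genes, or above 20% mitochondrial UMIs, were dropped. Gates needed 1 UMI of each marker, and cells of more than 1 lineage were left out. Counts were summed per class and library and divided by the class total. Ratios are log2 with 10 CPM added, over genes with at least 50 UMIs in both groups together, and 2-fold was the threshold. Classes needed 30 cells. A count of 0 allows up to 3 counts. Thinning drew UMIs with seed 7. Python 3.11.15, numpy 2.4.6, scipy 1.17.1, pandas 2.3.3, scanpy 1.11.5 (Scrublet), matplotlib 3.10.9, R 4.3.3 and edgeR 4.0.16 (TMM factors only) were used, and the ratio calculation was tested on simulated counts. Named were both members, every detected CXCR3-axis gene and the 5 genes most like each member. Of each other list, the 4 genes with the largest sinusoidal log2 ratio were named. Cxcl5, Cxcl12, Cxcl16, Ccl20, Gbp2, Gbp4, Gbp9, Tgtp2, Tnfrsf1b, Ciita and marker genes were named after their values were seen. Members and lists were chosen with earlier results of these data known. Alternatives covered gates, cell filters, doublets, the CPM added, scaling, cell weights and thinning.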

Additional observations from a re-analysis of the deposited data

Results flagged for a closer look

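Cxcl9 in mesothelial cells went against the direction of Cxcl9 in the endothelial and duct classes: its level was 0.387 times as high in negative injury as in negative recovery, while the ratio was 3.96 in sinusoidal cells. The difference between classes was not tested, the ratio rests on 16 UMIs at injury and 11 UMIs in recovery, and 8 of the 11 lay in 1 cell.

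Myeloid-gated cells (Csf1r with Lyz2) entered no comparison, since the positive recovery library alone kept any of them, and both chemokines were above the limit that a count of 0 allows there. In its 35 myeloid-gated cells Cxcl10 was measured at 517 CPM (447 to 595) on 194 UMIs, and 51.4% of these cells had a UMI. Cxcl9 was measured at 66.7 CPM (43.1 to 98.4), and 23 of its 25 UMIs came from 1 cell, without which the level was 5.76 CPM.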

How the results depend on the processing

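With 1 library per group no replicate could be left out. No paired analysis was possible because each group is 1 library and no result comes from a test. All ratios here are log2. The ratios of injury over recovery in all, sinusoidal and duct cells, and of sinusoidal over duct cells at injury, kept their direction in all 12 alternatives. Leaving out the highest cell or the stellate-gated cells was chosen after seeing the data. With every cell that passes a gate kept, injury over recovery was 3.04 for Cxcl10 in sinusoidal cells and, in duct cells, 1.39 for Cxcl9 and 2.14 for Cxcl10; positive over negative sinusoidal cells came to -0.87 for Cxcl9 and 0.11 for Cxcl10, sinusoidal over duct to 4.03 and 3.78, and the duct Cxcl9 share of UMIs to 15.9%. With cells that pass exactly 1 gate, sinusoidal Cxcl9 was 1.98 and its share 21.9%. With at least 2 UMIs of each marker, duct Cxcl9 was 0.65, sinusoidal over duct Cxcl9 5.51 and the duct share 9.48%. With 1 CPM added, Cxcl9 and Cxcl10 were 1.47 and 2.55 over all cells, 1.26 and 2.39 in duct cells, and 7.23 and 5.404 for sinusoidal over duct; 531 genes were higher and 306 lower in sinusoidal cells, and 485 and 336 in duct cells. With 50 CPM added, they were 1.20 and 2.33 over all cells, 1.75 and 2.95 in sinusoidal cells, 0.084 and 0.92 in duct cells, where Cxcl10 was then under 2-fold, and 3.95 and 4.65 for sinusoidal over duct; 115 genes were higher and 19 lower in sinusoidal cells, and 70 and 18 in duct cells, where 26 list genes were higher and 0 lower, against 40 and 1. With TMM factors they were 1.53 and 2.63 over all cells, 2.12 and 3.28 in sinusoidal cells, and 5.94 and 5.44 for sinusoidal over duct, with 37 genes lower in sinusoidal cells. With every cell weighing the same they were 1.92 and 2.96 over all cells, 2.04 and 3.14 in sinusoidal cells, and 5.43 and 4.88 for sinusoidal over duct, and duct Cxcl9 was 0.69. Without thinning, 64.3% of sinusoidal cells at injury had both genes. Without the highest cells, Cxcl10 was 0.14 for positive over negative sinusoidal cells and 5.37 for sinusoidal over duct. Without stellate-gated cells, positive over negative sinusoidal cells came to -0.33 for Cxcl9 and -0.045 for Cxcl10, which changed its sign. Mesothelial Cxcl9, injury over recovery, was -0.44 and turned to 0.73 with every gate-passing cell, 0.54 with equal weights and 0.01 without the highest cells. Requiring 2000 UMIs or allowing at most 10% mitochondrial UMIs moved no result beyond counting error, and removing Scrublet calls moved 2 log2 ratios: Cxcl10 in positive over negative recovery of all cells came to -0.91, against -0.85, and Cxcl10 in sinusoidal over mesothelial cells of positive recovery to 1.89, against 1.76. In recovery, too few vascular cells passed exactly 1 gate to be compared. The causes of these shifts were not tested. Depth limits the duct and mesothelial values of Cxcl9, which rest on 6 to 71 UMIs.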
